A study of Mus musculus with 12 samples.

Results

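Of 10174 distinct productive beta chain rearrangements in T cells of mouse mammary tumours, 712 (7.0%) had a short CDR3 of 11 or fewer amino acids, counting the cysteine and the phenylalanine at its ends. They were chosen by length alone: a contig had to lie in a called cell, be marked productive, be a TRB (T cell receptor beta) contig and have a CDR3 of at most 11 residues. Each combination of V gene and CDR3 nucleotide sequence was counted once in each library. They are set beside the 9167 rearrangements of 12 to 16 residues, and 295 more had 17 or more. The 712 fell into 691 combinations of V gene and amino acid sequence. All 712 began with C and ended with F, and 700 had a contig marked as high confidence.

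The study profiled CD45+ immune cells, sorted by a surface protein of leukocytes, from mammary tumours of BALB/c mice before and after immunotherapy. The treatment course lasted 3 weeks and combined cyclophosphamide, a chemotherapy that alkylates DNA, with pexidartinib, which blocks the receptor for CSF1, a growth factor of macrophages. Receptors were read in 6 libraries, called here by their names in the deposited table: CTX, Combined and CTX2 (treated receptor replicates 1, 3 and 4), CSF1R (its library number begins the titles of treated expression replicates 1 and 2), PBS1 (untreated expression replicate 3) and PBS2. PBS2 (receptor replicate 2) was labelled treated, whereas its name and its paired expression library point to no treatment, so it was kept out of the comparison by treatment and its value stands beside it. What the names CTX, CSF1R, Combined and PBS stand for, and which mouse gave which library, are not given in the labels. No p-value here therefore measures the spread between mice. Permutation tests gave each library equal weight, whereas tests on counts (edgeR and DESeq2) gave more weight to libraries with more rearrangements, chiefly Combined.

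A beta chain gene is assembled in the thymus by joining a V, a D and a J segment. Nucleases trim the segment ends and terminal transferase adds untemplated bases, and the CDR3 spans this joint, from the conserved cysteine encoded by V to the conserved phenylalanine encoded by J. It forms the loop at the centre of the receptor that touches the peptide held by an MHC molecule. A short CDR3 can arise through a V or J segment with a short germline end, through deeper trimming, or through fewer bases between V and J. Because length is the sum of these parts, the V and J genes compared below were not used to choose the members, but their germline ends are part of the length that was.

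Members with the same protein sequence in 2 libraries are printed first as examples of joints. The results below turn on V ends, J ends and middles. Lower case marks bases that match the consensus V end (left) or J end (right) of the gene. Capitals mark the middle, the bases that match neither, where D bases and added bases lie. These members are not typical: 20 of their 27 rearrangements had a middle of 3 or fewer bases, against 30.2% of the short class. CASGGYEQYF (TRBV13-2, TRBJ2-7, 10 residues) was written by 3 different nucleotide sequences, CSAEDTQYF (TRBV1, TRBJ2-5, 9 residues) by 2, and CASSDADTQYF (TRBV13-1, TRBJ2-5, 11 residues) by 2. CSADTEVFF (TRBV1, TRBJ1-1) and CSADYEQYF (TRBV1, TRBJ2-7), both of 9 residues, had the same nucleotides in both libraries and no middle base. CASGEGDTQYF (TRBV13-2, TRBJ2-5, 11 residues), not printed, also had the same nucleotides in CTX2 and Combined, but with a middle of 7 bases.
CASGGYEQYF in CSF1R: tgtgccagcggGGGGtatgaacagtacttc
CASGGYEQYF in Combined: tgtgccagcggtgGGtatgaacagtacttc
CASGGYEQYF in Combined, second sequence: tgtgccagcggtgGTtatgaacagtacttc
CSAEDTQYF in CTX: tgcagtgcTGaagacacccagtacttt
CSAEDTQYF in Combined: tgcagtgcagaGgacacccagtacttt
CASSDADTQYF in CTX2: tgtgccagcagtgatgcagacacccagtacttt
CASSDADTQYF in Combined: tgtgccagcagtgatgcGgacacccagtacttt
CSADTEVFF in CTX2 and Combined: tgcagtgcagacacagaagtcttcttt
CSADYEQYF in CSF1R and PBS2: tgcagtgcagactatgaacagtacttc

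The consensus ends that the joints were matched to came from all productive CDR3 of each gene in the 6 libraries. They are given for some of the genes named in the text. TRBV1 contributes 12 bases from its cysteine codon onward, whereas TRBV13-2, TRBV5 and TRBV2 contribute 17. The share of TRBV13-2 did not differ detectably between the classes (edgeR adjusted p = 0.507). TRBV4 contributes 13 bases and TRBV19 14, although both had a lower fitted share in the short class. TRBJ2-7 contributes 19 bases up to and including its phenylalanine codon, TRBJ1-1 20, TRBJ1-3 22 and TRBJ1-6 25. Such a consensus can run a base past the true gene end.
TRBV1 end: tgcagtgcagat
TRBV13-2 end: tgtgccagcggtgatgc
TRBV5 and TRBV2 end: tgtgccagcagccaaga
TRBJ2-7 end: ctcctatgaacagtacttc
TRBJ1-1 end: caaacacagaagtcttcttt
TRBJ1-3 end: ttctggaaatacgctctatttt
TRBJ1-6 end: ttcctataattcgcccctctacttt

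The libraries were of very different size, and Combined held 75% of the short rearrangements. Called cells ran from 245 in PBS1 to 7629 in Combined, and unique molecular identifiers (UMIs, which count molecules) from 6807 in PBS1 to 121305 in Combined. PBS1 held 12 short rearrangements, CTX 27, PBS2 32, CTX2 41, CSF1R 66 and Combined 534. Of 11468 cell barcodes, 50 occurred in more than 1 library. Across all lengths, 17 nucleotide rearrangements occurred in 2 or more libraries, 3 of them short, and none of the 197 pairs of cells that held them shared a barcode. A second productive TRB in the cell was seen for 20.6% of the short and 18.7% of the 12 to 16 residue rearrangements.

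Short CDR3 formed a similar tail in every library. The most common length was 14 residues, with 2784 rearrangements, and counts fell towards the short end, to 518 at 11 residues, 136 at 10, 45 at 9, 12 at 8 and 1 at 7. Just outside the limit stood 1213 rearrangements of 12 residues. The share of short rearrangements was 8.51% in PBS1 (exact Clopper-Pearson 95% interval 4.48 to 14.4), 7.96% in PBS2 (5.51 to 11.1) and 7.51% in CSF1R (5.85 to 9.45). It was 6.84% in CTX (4.55 to 9.79), 7.98% in CTX2 (5.78 to 10.7) and 6.81% in Combined (6.26 to 7.39). The intervals, which cover counting error only, all overlap.

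**Figure D1:**
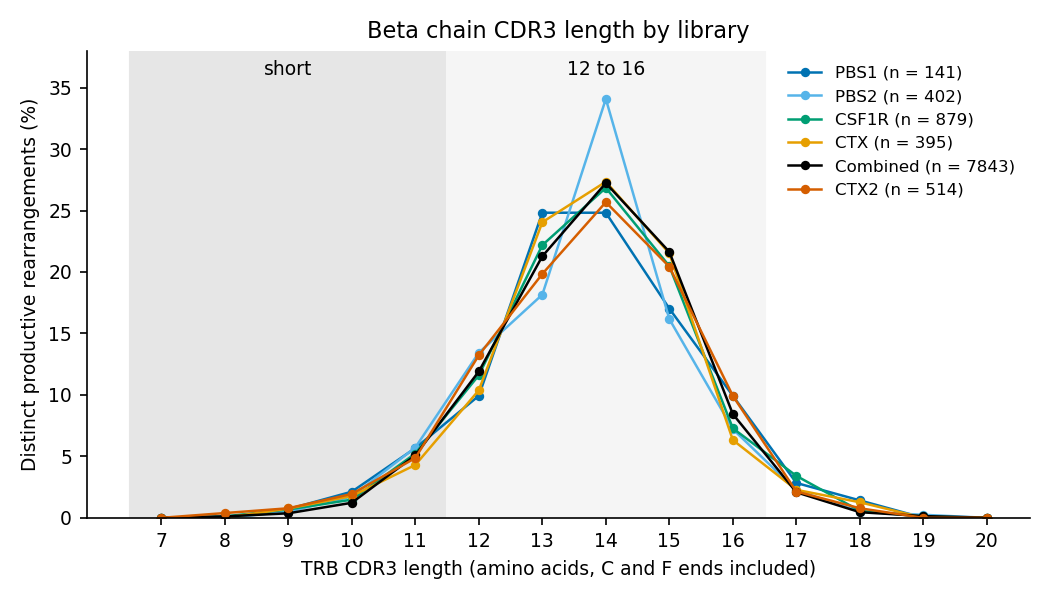
Share of distinct productive rearrangements (vertical axis, percent) at each beta CDR3 length (horizontal axis, amino acids) in the 6 libraries, with the short class shaded dark and 12 to 16 residues light. The lines lie close together at 11 and fewer residues, and 1 rearrangement of 24 residues lies beyond the axis.

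The treated libraries had a mean short share of 7.28% ± 0.565 (SD, n = 4), against 8.51% in PBS1, the only untreated library. The difference of -1.23 percentage points gave an exact permutation p of 0.2 (two-sided), which is the smallest that 4 libraries against 1 allow. When PBS2 was placed beside PBS1 the difference was -0.953 (exact permutation p = 0.2, smallest possible 0.0667). When PBS2 was placed among the treated libraries the difference was -1.09 (exact permutation p = 0.167, again the smallest possible). A change of the short share with treatment was therefore not detectable with these libraries.

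TRBV1 was the V gene of the short class. It encoded 225 of the 712 short rearrangements, on average 31.1% ± 5.96 (SD, n = 6) per library, against 5.19% ± 1.01 of those with 12 to 16 residues. In the short and the 12 to 16 residue class it took 25% and 4.92% in PBS1, 25% and 3.91% in PBS2, and 30.3% and 6.82% in CSF1R. The corresponding shares were 40.7% and 4.52% in CTX, 34.1% and 5.24% in CTX2, and 31.6% and 5.71% in Combined. Every library had more TRBV1 in its short class than any library had in its longer class, although in PBS1 the short share rests on 3 rearrangements. The fitted ratio was 5.59-fold (log2 2.48, SE 0.124, adjusted p = 1.08e-17 by edgeR's quasi-likelihood test with Benjamini-Hochberg adjustment). Without Combined it was log2 2.52 (edgeR adjusted p = 7.88e-09).

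Seen from the gene, 30.2% of all TRBV1 rearrangements were short, against 5.16% of those with any other TRBV. The TRBV1 share ran from 27.4% in CSF1R to 40.7% in CTX, and the share among the other V genes from 4.35% in CTX to 6.82% in PBS1, so the ranges did not overlap. In GRCm38.p6 TRBV1 lies on chromosome 6 from 40891296 to 40891885, ahead of all other TRBV genes, while TRBD1 starts at 41533201 and TRBD2 at 41542163.

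In all, 7 of 15 tested TRBV genes (46.7%) differed in share between the classes at an adjusted p under 0.05, 1 of them higher (6.67%) and 6 lower (40%) in the short class. Shares within a class add up to 100%, so a gene that takes more leaves less for the others. With TMM scaling, which shifted the log2 ratios by 0.34 on average, 3 were higher (TRBV1, TRBV20 and TRBV29) and 3 lower (TRBV5, TRBV2 and TRBV13-1), and with DESeq2 1 was higher and 2 lower. No called gene changed sign. Without Combined 6 were called: TRBV1 and TRBV20 higher, and TRBV5, TRBV2, TRBV13-1 and TRBV14 (log2 -2.78, edgeR adjusted p = 0.0185, named after its values were seen) lower. TRBV4, TRBV13-3 (edgeR adjusted p = 0.526) and TRBV19 (edgeR adjusted p = 0.327) were then not called.

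The V genes lower in the short class were led by TRBV5 and TRBV2, whose consensus ends are identical over the 17 bases printed above. TRBV5 took 2.40% ± 1.93 of short rearrangements (SD, n = 6) and 9.39% ± 1.27 of the longer ones, and was lower in 6 of 6 libraries (21 short rearrangements, log2 -1.83, SE 0.242, edgeR adjusted p = 1.48e-07). TRBV2 took 0.833% ± 1.35 and 4.79% ± 1.43, with 11 short rearrangements, 10 of them in Combined and none in 4 libraries (log2 -1.71, SE 0.342, edgeR adjusted p = 0.000101). Without Combined the ratios were -1.75 for TRBV5 (edgeR adjusted p = 0.0151) and -2.84 for TRBV2 (edgeR adjusted p = 0.0185). TRBV13-1 was lower in 6 of 6 libraries, with 5.02% ± 4.34 against 11.7% ± 2.80 (log2 -1.02, SE 0.205, edgeR adjusted p = 0.000101, DESeq2 adjusted p = 0.062).

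TRBV4 was also lower in 6 of 6 libraries, with 3.60% ± 2.16 against 5.87% ± 1.74 (SD, n = 6), but its call changed with the fit. Its log2 ratio of -0.62 (SE 0.220) had an edgeR adjusted p of 0.0263, which became 0.345 without Combined, 0.369 with TMM scaling and 0.424 with DESeq2. The remaining called genes, TRBV13-3 (log2 -0.78, edgeR adjusted p = 0.0218) and TRBV19 (log2 -0.50, edgeR adjusted p = 0.0263), were higher in the short class in 3 and 2 of 6 libraries. TRBV20 was higher in the short class in 6 of 6 libraries, 10.6% ± 3.38 against 5.65% ± 1.72, and did not pass the test (log2 0.29, edgeR adjusted p = 0.184), but did so without Combined (log2 0.93, edgeR adjusted p = 0.0383).

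Rare V genes that fell under the minimum for testing, 1% of rearrangements on average, are given as counts. TRBV26 was short in 8 of its 17 rearrangements (47.1%), the highest share of any V gene, and was picked out after its values were seen. TRBV12-1 was short in 2 of 17, TRBV15 in 3 of 23 and TRBV30 in 4 of 47. None of the 13 TRBV12-2, 4 TRBV21 and 22 TRBV23 rearrangements was short. Over all V genes the share was 7.0%, so with so few rearrangements a count of 0 cannot be read as a lower share.

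**Figure D2:**
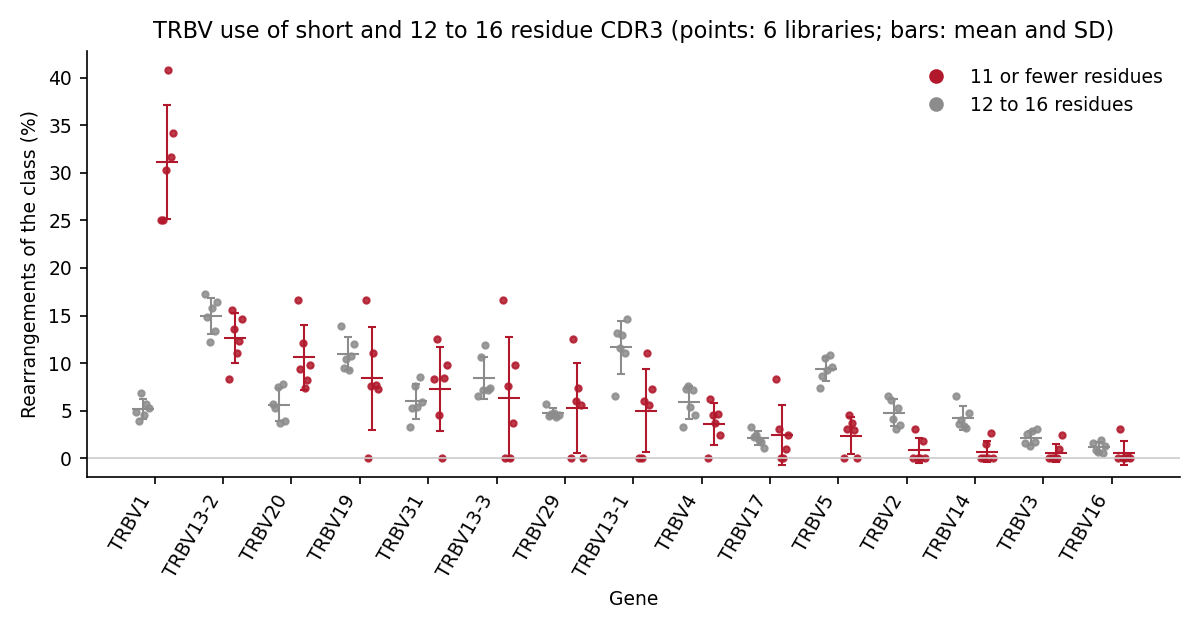
Share of rearrangements (vertical axis, percent of the class) that used each tested TRBV gene (horizontal axis), for CDR3 of 11 or fewer residues (red) and of 12 to 16 residues (grey). Points are the 6 libraries and bars the mean and SD; TRBV1 is the gene whose red points, from 25% to 40.7%, stand clear of its grey ones.

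The J genes of the short class were TRBJ2-7 and TRBJ1-1, which have the shortest germline ends beside TRBJ1-2. TRBJ2-7 encoded 231 short rearrangements and took 31.9% ± 12 of the short class (SD, n = 6) against 14.6% ± 2.62 of the longer one. Its share in the short and the longer class was 50% and 11.5% in PBS1, 31.2% and 12.8% in PBS2, and 39.4% and 14.9% in CSF1R. It was 18.5% and 19.2% in CTX, 19.5% and 14.8% in CTX2, and 33.0% and 14.5% in Combined. TRBJ2-7 was thus higher in 5 libraries and not in CTX, and the fitted ratio was 2.22-fold (log2 1.15, SE 0.108, edgeR adjusted p = 2.34e-14). Without Combined it was log2 1.03 (edgeR adjusted p = 0.000619).

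TRBJ1-1 encoded 135 short rearrangements and took 15.5% ± 6.10 against 9.47% ± 1.08 (SD, n = 6). Its short share ran from 7.41% in CTX, where the longer class had 10.2%, to 21.9% in PBS2, where the longer class had 8.38%. The ratio was 1.91-fold (log2 0.93, SE 0.138, edgeR adjusted p = 3.81e-08), and without Combined log2 0.73 with an edgeR adjusted p of 0.0764.

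Of 12 tested TRBJ genes, 9 (75%) were called, 2 of them higher (16.7%) and 7 lower (58.3%) in the short class. The lower ones were TRBJ1-6 (log2 -1.49, 10 short rearrangements), TRBJ1-3 (-1.42, 18), TRBJ2-2 (-1.02, 22), TRBJ2-3 (-0.98, 33), TRBJ1-4 (-0.81, 38), TRBJ2-1 (-0.76, 43) and TRBJ2-4 (-0.52, 42), with edgeR adjusted p-values from 1.46e-05 for TRBJ1-3 to 0.0210 for TRBJ2-4. TRBJ1-2 (log2 -0.51, edgeR adjusted p = 0.0594), TRBJ1-5 (-0.09) and TRBJ2-5 (0.05) did not pass. These calls rest on Combined: without it 2 of 12 passed, TRBJ2-7 higher and TRBJ1-4 lower (log2 -1.39, edgeR adjusted p = 0.0389). With TMM scaling 2 were higher and 6 lower. With DESeq2, whose scaling shifted the log2 ratios by 0.43 on average, TRBJ2-7 and TRBJ1-1 were higher and 0 genes lower, also at an unadjusted p under 0.05.

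**Figure D3:**
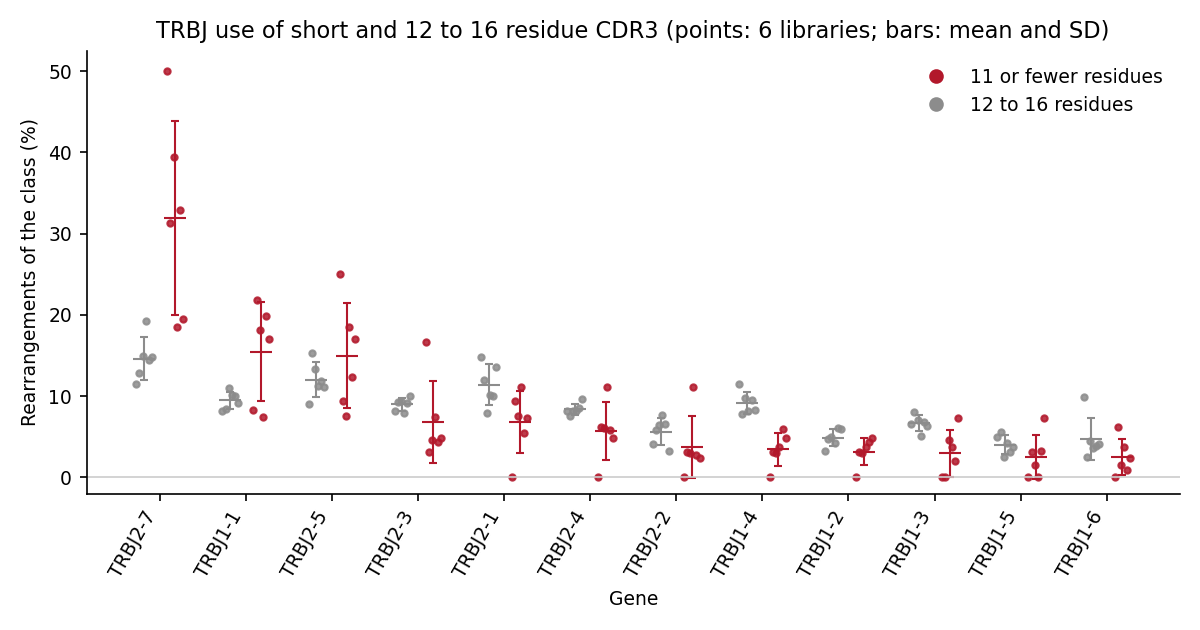
Share of rearrangements (vertical axis, percent of the class) that used each TRBJ gene (horizontal axis), for CDR3 of 11 or fewer residues (red) and of 12 to 16 residues (grey), with points for the 6 libraries and bars for the mean and SD. The short shares of TRBJ2-7 reach from 18.5% in CTX to 50% in PBS1.

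J genes with a longer germline end tended to have a lower ratio. The part of each J gene in the CDR3 was taken as its RefSeq length (GRCm38.p6) minus the 28 bases after the phenylalanine codon, which gave 19 bases for TRBJ2-7 (chromosome 6, 41543810 to 41543856), 20 for TRBJ1-1 (41533864 to 41533911) and 25 for TRBJ1-6 (41535554 to 41535606). Across the 12 genes this length and the log2 ratio had a Spearman correlation of -0.787 and a Pearson correlation of -0.764. Both are descriptions without a test, since the genes share libraries and their germline bases are part of the CDR3. TRBJ1-2 has 20 bases like TRBJ1-1, yet 5.09% of its rearrangements were short, against 12.8% of TRBJ1-1 and 14.6% of TRBJ2-7.

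**Figure D4:**
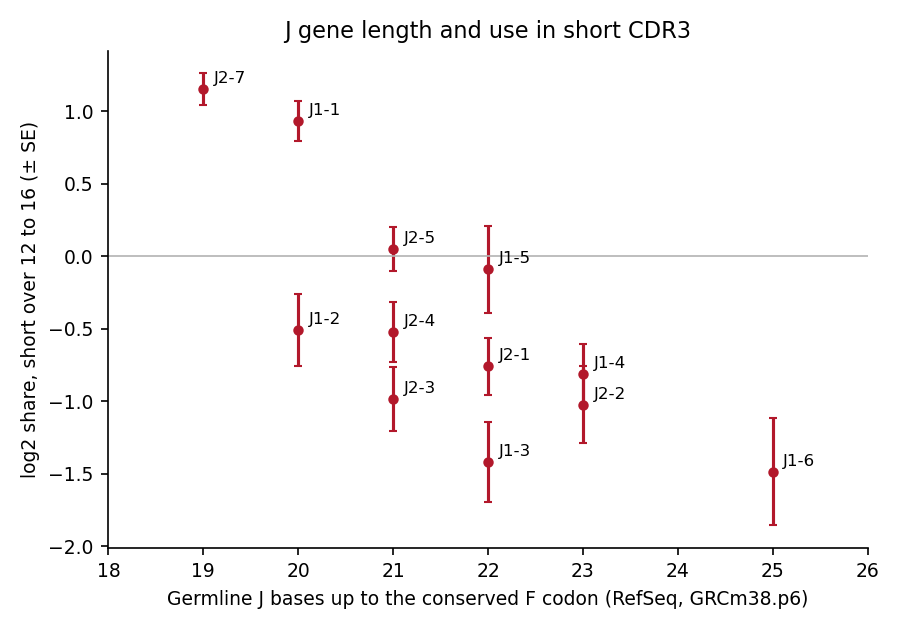
Log2 ratio of the share in short CDR3 to that in 12 to 16 residue CDR3 (vertical axis, ± SE from edgeR) against the germline bases of each of the 12 TRBJ genes up to and including the phenylalanine codon (horizontal axis). TRBJ2-7 at 19 bases and TRBJ1-1 at 20 lie above 0, and TRBJ1-6 at 25 lies lowest at -1.49.

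The most frequent V and J pairs among short joints, TRBV1 with TRBJ2-7 and TRBV1 with TRBJ1-1, made up 9.55% and 5.90% of them. TRBV1 with TRBJ2-7 was the most frequent pair, with 68 short rearrangements, and 54.8% of all rearrangements of that pair were short. TRBV1 with TRBJ1-1 followed with 42, 52.5% of the pair. TRBJ2-7 made up 30.2% of short TRBV1 rearrangements and 32.4% of all short ones, so within the short class it was not more frequent with TRBV1. Next were TRBV13-2 with TRBJ2-7 (30, 13.1% of the pair), TRBV13-2 with TRBJ2-5 (23, 12.1%) and TRBV1 with TRBJ2-5 (22, 29.7%). The J differences were also present without TRBV1. With those rearrangements left out, an alternative added after the data were seen, the log2 ratio was 1.18 for TRBJ2-7 (edgeR adjusted p = 1.25e-13) and 0.92 for TRBJ1-1 (edgeR adjusted p = 4.60e-07). TRBJ1-2 then also passed as lower (log2 -1.05, edgeR adjusted p = 0.00410).

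Short joints had fewer V bases, fewer J bases and a smaller middle. Of the 712, 702 could be split into these parts. Averaged over libraries, the V part was 10.6 bases ± 0.671 (SD, n = 6) in short and 13.2 ± 0.135 in longer CDR3, the middle 5.52 ± 0.644 and 10 ± 0.189, and the J part 15.6 ± 0.542 and 18.5 ± 0.186. Each part was smaller in the short class in 6 of 6 libraries. The sum of the parts is fixed by the length rule, so no test is given. When the longer class was weighted to the V and J pairs of the short one, its pooled means were 11.9 bases of V, 10.6 of middle and 17.7 of J, against 10.9, 5.50 and 15.5 in the short class. The gap in V and J bases was then smaller, and the gap in the middle was not.

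Many short joints had almost nothing between V and J. A middle of 3 or fewer bases was found in 212 of 702 short rearrangements (30.2%), against 2.55% of the longer ones. No middle base at all was found in 42 short (5.98%) and in 14 longer rearrangements (0.153%). No D gene was called in 63.6% ± 11.4 of short rearrangements (SD, n = 6), against 22.5% ± 2.55, and the share was higher in the short class in 6 of 6 libraries. It was lowest in PBS1, at 41.7%, and highest in PBS2, at 75%. By length, the share without a D call was 90.7% at 9 residues, 70.4% at 10, 60.5% at 11, 44.0% at 12 and 18.2% at 14. A D call needs enough D bases to be recognised, so the absence of a call does not show that no D segment was joined.

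Within TRBV1 the smaller size lay mainly in the middle and the J part. Short TRBV1 rearrangements kept 8.61 of the 12 V bases, close to the 9.16 of TRBV1 rearrangements of 12 to 16 residues. Their middle was 6.40 bases against 10.4, and their J part 16.4 against 19.1. These are pooled means over 225 short and 518 longer rearrangements, again without a test.

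**Figure D5:**
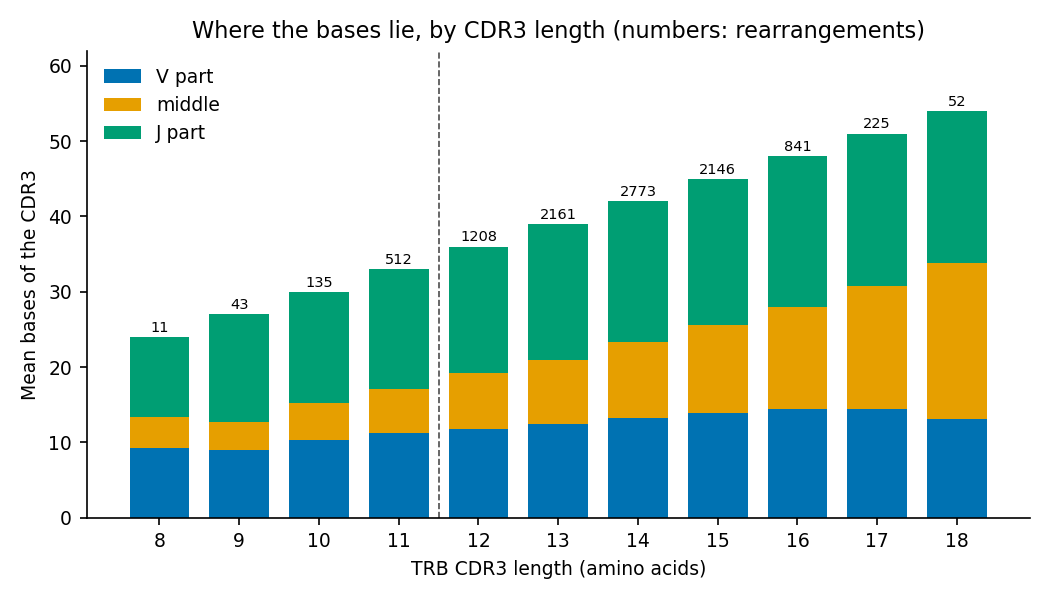
Mean number of CDR3 bases in the V part, the middle and the J part (stacked bars, vertical axis) at each CDR3 length from 8 to 18 residues (horizontal axis), pooled over the 6 libraries, with the number of rearrangements above each bar and a dashed line at the limit of the short class. The middle grows from 3.70 bases at 9 residues to 5.83 at 11 and 10.1 at 14.

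The protein ends showed the same loss. Among TRBV1 rearrangements 64.0% of short and 76.3% of longer CDR3 began with CSA, and among other TRBV genes 70.4% and 82.5% began with CAS. The full TRBJ2-7 ending SYEQYF was kept in 9.52% of short and 27.4% of longer rearrangements of that gene, YEQYF in 47.2% and 70.6%, and EQYF in 92.2% and 99%. The TRBJ1-1 ending NTEVFF was kept in 24.4% and 61.0%, and TEVFF in 52.6% and 91.3%. The extreme members show how far this went: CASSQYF (TRBV29, TRBJ2-7), the only one of 7 residues, joined V and J with no middle base, and 2 of the 8-residue members joined TRBV1 cut to 7 bases with TRBJ2-1 or TRBJ2-7. They rested on 17 UMIs, 38 UMIs (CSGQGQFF) and 16 UMIs (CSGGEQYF), each in 1 cell.
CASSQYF in Combined: tgtgctagcagtcagtacttc
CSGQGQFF in Combined: tgcagtgGACAGGGgcagttcttc
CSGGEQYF in CTX2: tgcagtgGGGGAgaacagtacttc

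Between the first 3 and last 4 residues, short CDR3 held more tyrosine and aspartate. Dropping these ends removed most conserved residues and left 3.63 residues per short and 6.92 per longer rearrangement. Still counted were the tyrosine of the TRBJ2-7 ending YEQYF and the aspartate of TRBV1 CDR3 that begin with CSAD. That ending was on 109 short rearrangements, beside 139 tyrosines counted in all, and on 944 longer ones, beside 2141. CSAD began 50 short rearrangements, beside 271 aspartates counted in all, and 131 longer ones, beside 5134. Of 20 amino acids, 5 (25%) were called, 3 higher (15%) and 2 lower (10%). Tyrosine made up 5.80% ± 0.924 of the residues counted in short and 3.62% ± 0.328 of those counted in longer CDR3 (SD, n = 6). It was higher in 6 of 6 libraries, from 4.29% against 3.69% in CTX2 to 6.98% against 3.91% in PBS1 (log2 0.67, SE 0.133, edgeR adjusted p = 3.86e-05). Aspartate made up 10.9% ± 1.40 and 8.41% ± 0.578 and was higher in 6 of 6 libraries (log2 0.37, SE 0.0924, edgeR adjusted p = 0.00107). Lysine was higher on 35 residues and at 0 in PBS2 and CTX (log2 0.94, edgeR adjusted p = 0.00545), and proline (-0.61, edgeR adjusted p = 0.0121) and serine (-0.23, edgeR adjusted p = 0.0155) were lower in 5 of 6 libraries each. Without Combined 0 of 20 passed in edgeR (2 at an unadjusted p under 0.05), with tyrosine at log2 0.68 (adjusted p = 0.213) and aspartate at 0.31 (adjusted p = 0.561).

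The residue calls moved with the genes used and with the window. When the longer class was weighted to the J genes of the short one, tyrosine was at log2 0.21 (edgeR adjusted p = 0.188), and when the first 4 and last 5 residues were dropped it was at -0.30 (edgeR adjusted p = 0.465). Aspartate lost its call with other windows, at log2 0.04 with the first 3 and last 1 residues dropped (edgeR adjusted p = 0.656) and 0.23 with the first 4 and last 5 dropped (edgeR adjusted p = 0.258). It also lost its call at 10 or fewer residues, at log2 0.02 (edgeR adjusted p = 0.982), and narrowly without TRBV1, at log2 0.27 (edgeR adjusted p = 0.05). Without TRBV1 serine turned to log2 0.03 (edgeR adjusted p = 0.776). With TMM scaling 3 amino acids were higher and 4 lower, and with DESeq2 tyrosine (adjusted p = 0.0331) and cysteine, on 1 short residue, were higher and 0 lower. DESeq2 did not call aspartate (adjusted p = 0.214) or lysine (adjusted p = 0.153), and at an unadjusted p under 0.05 it had 5 amino acids in all.

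Short receptors were found in more than 1 library at a low rate. Of 691 combinations of V gene and amino acid CDR3, 13 occurred in 2 libraries (1.88%, exact Clopper-Pearson 95% interval 1.01 to 3.20) and 0 in 3 or more, which allows a share of up to 0.434% (3 counts of the total). Of 9023 combinations of 12 to 16 residues, 67 occurred in 2 or more (0.743%, interval 0.576 to 0.942) and 4 in 3 or more, and of 294 combinations of 17 or more residues 0 occurred in 2 or more (exact Clopper-Pearson upper bound 1.25%). These pooled shares are a description without a test. Of the 13 shared short receptors, 11 occurred in Combined, 4 used TRBV1 and 10 had different nucleotide sequences in their libraries. The 13 came from 27 rearrangements, of which 20 had a middle of 3 or fewer bases, 7 had none, 9 used TRBJ2-7 and all 27 lacked a D call. The sequences printed near the start are from this set, chosen after their values were seen.

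The test of sharing asked how many receptors of each of the other 5 libraries also occurred in Combined. In the short and the longer class this was 0% and 3.33% in PBS1, 0% and 3.63% in PBS2, and 4.62% and 2.06% in CSF1R. It was 11.1% and 2.56% in CTX, and 12.2% and 3.33% in CTX2, so the short class was higher in 3 of 5 libraries. The mean difference of 2.60 percentage points (SD 6.10, n = 5) gave an exact sign-flip permutation p of 0.4375, where 0.062 is the smallest possible. With 1 library left out the difference ran from 1.04 without CTX2 to 4.16 without PBS2. Counted by nucleotide CDR3 it was 0.318, higher in 1 and lower in 3 of 5 libraries (exact sign-flip permutation p = 1). Pooled over the 5 libraries, 11 of 177 short (6.21%) and 57 of 2057 longer receptors (2.77%) occurred in Combined. The short receptors of PBS1 and PBS2 number 12 and 32, so a share like that of the longer class was not detectable there.

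Several short receptors belonged to expanded clones, here the cells of 1 library that carry the same rearrangement. In CTX2, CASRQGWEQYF (TRBV13-3, TRBJ2-7) was carried by 37 cells, 3.41% of cells with a TRB, the largest short clone of any library which ranked 7th among all clones of CTX2. Of its 36 cells with an alpha chain, 19 had the more common of 2 alpha chains (TRAV3-4, TRAJ56). For clones and for alpha length below, each cell was given 1 alpha chain, its productive alpha contig with the most UMIs. A second alpha chain in the same cell is therefore not seen in these counts. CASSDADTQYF (TRBV13-1, TRBJ2-5), printed above with no middle base, was carried by 11 cells of CTX2 (1.01%), and all 10 with an alpha chain had the same one, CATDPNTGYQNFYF (TRAV8D-1, TRAJ49). In CTX, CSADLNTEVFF (TRBV1, TRBJ1-1) was carried by 11 cells (2.07%), all with the alpha chain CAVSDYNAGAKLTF (TRAV3-3, TRAJ39), and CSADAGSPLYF (TRBV1, TRBJ1-6) by 8 cells, none with an alpha chain. The sequences of the leading clone of each of 3 libraries show both kinds of joint, with a long and with a short middle.
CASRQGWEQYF in CTX2: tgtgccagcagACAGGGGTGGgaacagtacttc
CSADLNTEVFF in CTX: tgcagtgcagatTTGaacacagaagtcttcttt
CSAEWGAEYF in CSF1R: tgcagtgcagaATGGGGCGCGGagtacttc

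The last of these, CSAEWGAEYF (TRBV1, TRBJ2-7), was the largest clone of CSF1R of any length, with 8 cells (0.924%). Of its 5 cells with an alpha chain, 4 had the same one (TRAV14N-3, TRAJ48). In PBS2 the largest short clone was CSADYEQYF, the receptor without a middle base, with 4 cells (0.926%), all with the alpha chain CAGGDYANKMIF (TRAV14N-3, TRAJ47). In Combined it was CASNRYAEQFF (TRBV19, TRBJ2-1) with 4 cells of 1 alpha chain, followed by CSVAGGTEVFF (TRBV1, TRBJ1-1) with 2 cells of different alpha chains. PBS1 held single cells only, among them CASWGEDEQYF and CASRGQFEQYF, and the second clones of PBS2 (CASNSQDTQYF) and CSF1R (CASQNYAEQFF) were single cells as well.

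In total 19 short rearrangements were found in 2 or more cells, with 110 cells between them: 5 in CTX2 (57 cells), 3 in CTX (21), 9 in Combined (20), 1 in CSF1R (8), 1 in PBS2 (4) and 0 in PBS1. Of the 15 with an alpha chain in at least 2 cells, 8 had 1 alpha chain only and 5, all in Combined, had no alpha chain in common. Clones of 10 or more cells numbered 3 among short (0.421%) and 17 among longer rearrangements (0.185%).

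Clone size and alpha chain length showed no difference beyond the spread between libraries. The expanded share, the percent of rearrangements in 2 or more cells, was 0% and 10.7% in the short and longer class of PBS1, 3.12% and 3.91% in PBS2, and 1.52% and 1.67% in CSF1R. It was 11.1% and 11% in CTX, 12.2% and 11.1% in CTX2, and 1.69% and 0.719% in Combined. The mean difference was -1.58 percentage points (SD 4.50, n = 6, range -10.7 to 1.06, exact sign-flip permutation p = 0.8125, adjusted 0.938 over 6 measures), and it turned to 0.235 without PBS1 (exact sign-flip permutation p = 0.4375). Without TRBV1 it was -4.50, lower in 5 of 6 libraries (exact sign-flip permutation p = 0.094). Mean clone size was 1.36 ± 0.510 and 1.38 ± 0.447 cells (difference -0.02, range -0.48 to 0.26, exact sign-flip permutation p = 0.9375, adjusted 0.938), and the difference turned to 0.07 without PBS1.

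The paired alpha chain had a mean CDR3 of 13.7 residues ± 0.218 beside a short beta chain and 13.6 ± 0.146 beside a longer one (SD, n = 6). The difference was -0.49 residues in PBS1, 0.44 in PBS2, 0.05 in CSF1R, 0.13 in CTX, 0.07 in CTX2 and 0.08 in Combined. It averaged 0.05 (SD 0.30, exact sign-flip permutation p = 0.5625, adjusted 0.844), and was -0.03 without PBS2 and 0.15 without PBS1 (exact sign-flip permutation p = 0.062). Within the short class the alpha mean by beta length lay between 13.2 residues at 8 beta residues (10 rearrangements) and 13.9 at 9 (38 rearrangements), with 13.7 at 10 and at 11. Distinct nucleotide sequences per amino acid CDR3 within a library were 1.005 and 1.008 (exact sign-flip permutation p = 0.5, adjusted 0.844).

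The coverage of short and longer calls did not differ beyond the spread between libraries. The median UMI count of the best contig was 10.5 ± 4.32 for short and 8.33 ± 2.50 for longer rearrangements (SD, n = 6; exact sign-flip permutation p = 0.25, adjusted 0.75), and it was lower for short ones in PBS1 alone (8 and 11). A high-confidence contig was present for 99.1% ± 1.38 and 97.9% ± 1.13 (exact sign-flip permutation p = 0.062, adjusted 0.375). Alpha chains of invariant NKT cells (TRAV11 or TRAV11D with TRAJ18) were found in 1 of 614 cells with a short beta chain and an alpha chain and in 17 of 7612 with a longer one. Alpha chains of MAIT cells (TRAV1 with TRAJ33) were found in 0 of 614 (up to 0.489%) and in 8 of 7612.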

How the data were processed

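Cells were read with a 5' droplet kit and mouse T cell receptor enrichment, as the labels state. Cell Ranger 3.0.2 and the builds GRCm38 and mm10 (1 assembly) are named in the submitters' processing notes. The table deposited by the authors lists contigs with a count of reads and a count of UMIs, not normalized, with cell call, genes, CDR3 and productive status. All were taken as deposited. The table holds 11 library names, of which 6 match a sample's labels. The 5 others, and the expression matrices, were not used here. Reads ran from 31178451 in CTX to 83903661 in CSF1R. Doublets were kept, and cells with exactly 1 productive TRB were tried as an alternative.

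Members, lists and tests were chosen with earlier results of these data known. Numbers of distinct rearrangements per TRBV gene (at least 1% on average), TRBJ gene or amino acid were compared with edgeR 4.0.16 (glmQLFit and glmQLFTest, library as a block, library size the total of each class, no further scaling). DESeq2 1.42.0 and TMM were alternatives. Single values per library were tested with exact two-sided permutations. Adjusted p-values are Benjamini-Hochberg, over 15 TRBV genes, 12 TRBJ genes, 20 amino acids or 6 single measures. V and J parts were matched to a consensus, walked base by base while the leading base held at least 50% of sequences, with J ends limited to the RefSeq gene length minus 28 bases (9 codons and 1 base), a limit set after the first consensus ran past a J gene. RefSeq positions are of GRCm38.p6, another strain than BALB/c.

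Genes named were called TRBV genes of 1 sign in at least 5 libraries, all TRBJ genes, called amino acids, the 2 largest short clones per library and the 3 shortest CDR3. Receptors in 3 or more libraries were to be named and none existed, so those in 2 are shown. The fits were tested on simulated data. Software was R 4.3.3 and Python 3.11.15 with pandas 2.3.3, matplotlib 3.10.9, scipy 1.17.1 and numpy 2.4.6.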

Additional observations from a re-analysis of the deposited data

Results flagged for a closer look

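PBS1, with 12 short rearrangements, stood apart from the other libraries in several differences between the short and the longer class. Its expanded share differed by -10.7 percentage points, its TRBV2 share by -6.56 and its serine share by -10.8, each far from the nearest other library. Of 31 measures checked 3 stood apart in this way. Chance gives about 1 in 20 for independent measures, but these share rearrangements, so no excess over chance can be read. The short class of PBS1 held 0 expanded and 0 TRBV2 rearrangements, and TRBV2 was at 0 in the short class of CSF1R, CTX and CTX2 as well.

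In 4 measures PBS1, the untreated library, went one way and every treated library compared went the other. The paired alpha CDR3 beside short beta chains was longer by 0.0819 residues on average in the treated libraries and shorter by 0.49 in PBS1 (a difference of -0.49). Mean clone size differed by 0.11 cells against -0.48. Sharing with Combined differed by 6.66 percentage points in the treated libraries that could be compared with it, against -3.33. The TRBJ2-3 share differed by -3.85 percentage points against 8.47. PBS2, whose labels conflict, went with the treated libraries in alpha length (0.44) and in TRBJ2-3 (3.12% of short and 9.22% of longer rearrangements), and with PBS1 in mean clone size (-0.06) and sharing (-3.63). The PBS1 values rest on 12 short rearrangements, all in single cells: 10 had an alpha chain, 2 used TRBJ2-3 and 0 occurred in Combined. The 4 measures were picked out by this pattern, and with 1 untreated library these differences between treated and untreated were not tested.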

How the results depend on the processing

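No paired analysis was possible because treated and untreated libraries share no replicate numbers in the labels, while the length classes were compared within each library throughout. Of 15 TRBV genes, the 7 calls became 3 with DESeq2, 4 with each cell counted once, 4 in the 2 libraries whose names start with JR and 1 in the other 4 libraries, and 6 to 7 with 1 library left out, 4 of the 7 among the 6 without Combined. Of 12 TRBJ genes, the 9 calls became 2 with DESeq2 and 1 in the 4 libraries not named JR, and 2 to 9 with 1 library left out (2 without Combined). Of 20 amino acids, edgeR called 5, and DESeq2 called 2, of which tyrosine alone was among the 5. The edgeR calls numbered 1 at 10 or fewer residues, 3 without TRBV1, 13 when only the last residue was dropped from the J end, and 0 to 7 with 1 library left out. In the 4 libraries not named JR edgeR called 0 amino acids (2 at an unadjusted p under 0.05). Exact sign-flip permutation over libraries called 0 TRBV genes, 0 TRBJ genes and 0 amino acids, with 8, 2 and 4 at an unadjusted p under 0.05, where its smallest p, 0.031, could pass adjustment only if most features reached it.

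At 10 or fewer residues TRBJ2-5 turned to log2 -1.09 (edgeR adjusted p = 0.00895) and proline to 0.0087. Serine turned to 0.028 without TRBV1 and tyrosine to -0.30 with the first 4 and last 5 residues dropped. The difference in expanded share, -1.58, was -2.11 to 0.235 with 1 library left out, 1.01 in the JR libraries, -2.88 in the other 4, -4.50 without TRBV1, 0.105 for clones of 3 or more cells and 0.694 pooled. Mean clone size, -0.02, was -0.0762 to 0.0720 with 1 library left out, 0.0406 in the JR libraries, -0.214 at 10 or fewer residues, -0.102 without TRBV1 and 0.0307 pooled. Alpha length, 0.05, was -0.0319 to 0.154 with 1 library left out and -0.0363 in cells with exactly 1 productive TRB. The cause was not tested in any of these. The split by library name and the runs without TRBV1 were chosen after seeing the data. The difference in sharing, 2.60, was 1.04 to 4.16 with 1 library left out, 0.935 in cells with exactly 1 productive TRB and 0.318 by nucleotide CDR3, and has no value without Combined. Depth limits PBS1, CTX and PBS2 most, with 12, 27 and 32 short rearrangements.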
